A study of Mus musculus with 12 samples.

Results

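Itga8- Alcam+ bone-lining cells (Itga8- BLCs) were compared with Sca-1+ mesenchymal stem cells (Sca-1+ MSCs) in 6 of the 12 RNA-seq libraries of a study of the cells that line mouse bone. Both populations have 3 libraries of 2000 sorted cells each, and every gene of the libraries was used. The cells came from wild-type male C57BL/6 mice aged 8 to 10 weeks, and no group carried a transgene or received a treatment. In the methods of the study, both populations were taken from fragments of femora, tibias and iliac bones, which were digested with collagenase after the marrow had been flushed out. The labels name bone marrow as their source. Cells negative for CD45, Ter119 and CD31 (markers of blood cells, erythroid cells and endothelium) were divided by Alcam, Sca-1 and Itga8. The Itga8- BLCs were Alcam+ and Sca-1-, and the labels call them osteoblasts. The Sca-1+ MSCs were Alcam-. The other 6 libraries are 3 of Itga8+ Alcam+ Sca-1- cells (Itga8+ MSCs) and 3 of CD51+ CD140a+ MSCs from flushed marrow. They entered the fit, where all 4 groups share the estimate of spread. Their levels are given only for a few genes. Nothing in the labels says that the libraries of a group came from separate mice, so p-values measure the spread between these libraries, which may be technical.

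Osteoblasts arise from mesenchymal progenitors under the transcription factors Runx2 and Sp7 (Osterix). They secrete a matrix of type I collagen, in which phosphatases and acidic phosphoproteins control the deposition of mineral. Some of them become osteocytes within the matrix, and others flatten into a resting layer on the bone surface. Alcam (CD166) is an adhesion molecule on osteoblast-lineage cells of this surface. Sca-1, the product of Ly6a, marks stromal progenitors around vessels in many tissues, often together with Pdgfra (CD140a), Cd34 and genes of the loose connective tissue sheath known as the adventitia. Collagenase digestion of bone also releases cells of cartilage, periosteum and tendon attachments, so genes of these tissues were examined beside those of bone.

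The genes behind the sort followed the labels. Alcam (chr16:52248996-52454074, minus strand, GRCm38) was at 3.835, 5.098 and 5.815 CPM (counts scaled to the size of the library) in the Itga8- BLC libraries and at 0.221, 0.102 and 0.0937 in the Sca-1+ MSC libraries, replicates 1 to 3 in order. All BLC libraries were above all MSC libraries. The log2 fold change (Itga8- BLCs over Sca-1+ MSCs, as throughout) was 5.11 ± 0.77 (SE). Its FDR, the Benjamini-Hochberg adjusted p of edgeR's quasi-likelihood test over all tested genes, was 0.000815. Ly6a (chr15:74994877-74998031, minus strand) was at 28.4, 18.3 and 35.7 CPM in Itga8- BLCs and at 659, 637 and 611 CPM in Sca-1+ MSCs, with a log2 fold change of -4.53 ± 0.56 (FDR = 0.00025). Pdgfra (chr5:75152292-75198215, plus strand), which was not part of this sort, was at 47.6, 148 and 55.6 CPM and 1019, 869 and 734.5 CPM, with a log2 fold change of -3.38 ± 0.57 (FDR = 0.00173). Replicate 2 was the highest of the Itga8- BLC libraries for Pdgfra, and without it the log2 fold change was -4.13. Dmp1 (chr5:104202613-104214102, plus strand), an acidic phosphoprotein of mineralising matrix, was at 1634, 1715 and 2265 CPM in Itga8- BLCs and at 0.387, 0.153 and 0.375 CPM in Sca-1+ MSCs, so this gene of the osteoblast lineage was high in every library labelled osteoblasts. Itga8, by which the Alcam+ cells were split, was at 0.398, 4.17 and 0.6595 CPM in Itga8- BLCs and 2.88, 2.09 and 1.87 CPM in Sca-1+ MSCs, against 102.5 ± 85.65 (SD, n = 3) in Itga8+ MSCs. Its comparison was decided by 1 library. With all libraries the log2 fold change of Itga8 was -0.37 (FDR = 0.772), and without Itga8- BLC replicate 2, where it was highest, it was -2.15 (FDR = 0.0516). The genes shown for excluded lineages were low and overlapped between the populations, at 16.7, 31.6 and 3.54 against 19.9, 7.27 and 7.45 CPM for Ptprc (CD45) and 5.68, 10.1 and 3.42 against 5.15, 7.58 and 3.795 CPM for Pecam1 (CD31). Itgav (CD51) was at 22.8, 108.5 and 14.99 CPM and 126, 150.3 and 126 CPM and was not called (FDR = 0.2175), but without Itga8- BLC replicate 2 it was, at -2.87 (FDR = 0.0271), as with limma-trend (-1.996, FDR = 0.0778).

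The libraries held between 17681562 and 27574679 counts on genes, and 3 counts, taken as the floor of detection, corresponded to 0.139 to 0.180 CPM. Sca-1+ MSC libraries resembled each other closely, with Pearson's r of log2 CPM across genes between 0.964 and 0.974. In contrast, r between Itga8- BLC libraries was 0.921 to 0.949 and r between the populations 0.816 to 0.8765. The Itga8- BLC libraries differed in the level of long and short genes. Among the shortest sixth of well expressed genes, Itga8- BLC replicate 3 lay 0.84 above the mean of the 6 libraries in median log2 CPM, replicate 1 lay 0.22 above it and replicate 2 lay 0.25 below it (-0.25), whereas Sca-1+ MSC libraries lay between -0.33 and -0.15. Among the longest sixth, Itga8- BLC replicate 3 was at -0.79 and replicate 1 at -0.43, while replicate 2 was at 0.20 and the Sca-1+ MSC libraries between 0.27 and 0.45. The median log2 fold change of the populations accordingly ran from 0.60 in the shortest sixth to -0.57 in the longest. Counts of calls, list medians and the fold changes of named genes were therefore also computed after removal of a smooth trend with exon length from every library, an alternative chosen after the data had been seen, under which the same medians were 0.06 and 0.03. Its removal brought 8 uncalled genes named below past the thresholds (Acp5, Bgn, Col1a1, Eng, Mfap4, Nt5e, Scx and Tnmd) and ended the call of 15, which were Acta1, Atf3, Ccnb2, Cebpb, Cxcl14, Dcn, Dlx6, Enpp1, Epor, Esm1, Ighm, Lpl, Npr3, Serpinh1 and Wif1. The part of gene length in the levels of individual genes was not tested.

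**Figure D1:**
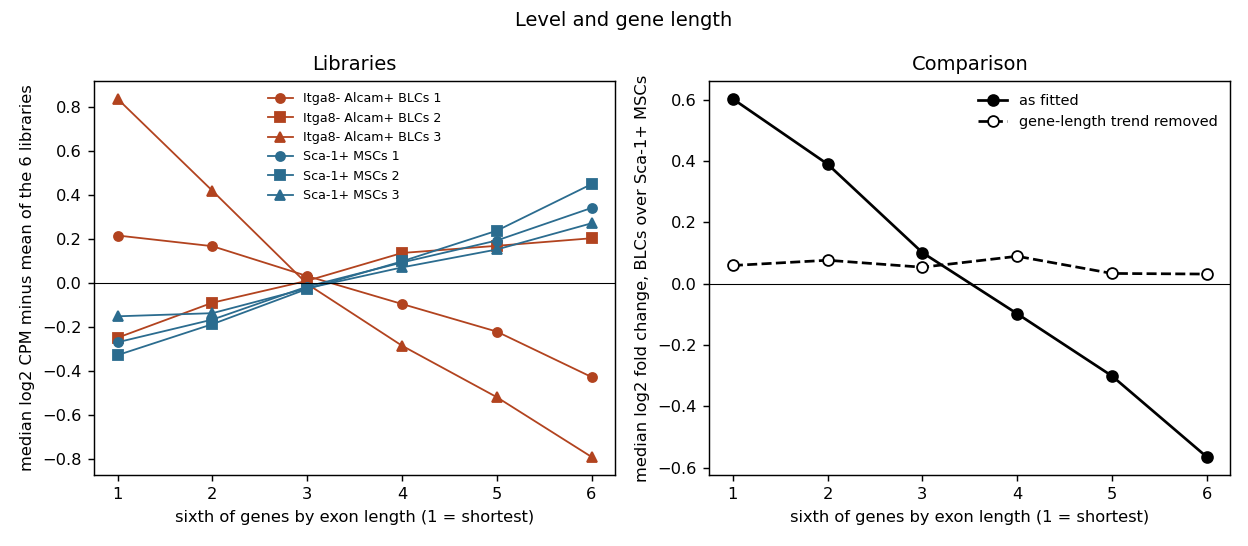
Median level of genes by exon length. In the left plot, each line is a library, the x axis is the sixth of genes by exon length (1 is the shortest) and the y axis the median of log2 CPM minus the mean of the 6 libraries. Itga8- BLC replicates 1 and 3 decline with length, while replicate 2 and the Sca-1+ MSC libraries rise. In the right plot, the y axis is the median log2 fold change of Itga8- BLCs over Sca-1+ MSCs, from 0.60 to -0.57 as fitted and near 0 after the trend was removed.

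The populations differed over a large part of the expressed genome. Of 18648 tested genes, 2706 (14.5%) were called higher in Itga8- BLCs and 2224 (11.9%) higher in Sca-1+ MSCs at an FDR below 0.1 with more than a 2-fold difference. With the fold taken as a lower bound or count ratio where the other population had at most 3 counts in all, 89 genes called in Itga8- BLCs passed 100-fold and 646 passed 10-fold, against 28 and 480 of the genes called in Sca-1+ MSCs. In 481 of the 2706 genes every Sca-1+ MSC library was at or under the floor, and in 197 of the 2224 every Itga8- BLC library was. Every Itga8- BLC library was above every Sca-1+ MSC library for 4443 tested genes (23.8%) and below for 4075 (21.9%), so the libraries did not overlap for 45.7% of the genes. Counts of calls in the lists below are read against the 14.5% and 11.9% of tested genes called. The median log2 fold change of all tested genes was 0.12, and list medians are read against it. When libraries were scaled by their totals alone, this median moved to -0.07 and the calls to 2171 higher and 2929 lower, so that 42.6% of the calls favoured Itga8- BLCs in place of 54.9%. The reads are from whole populations, in which fewer cells of a type and less RNA per cell cannot be told apart.

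**Figure D2:**
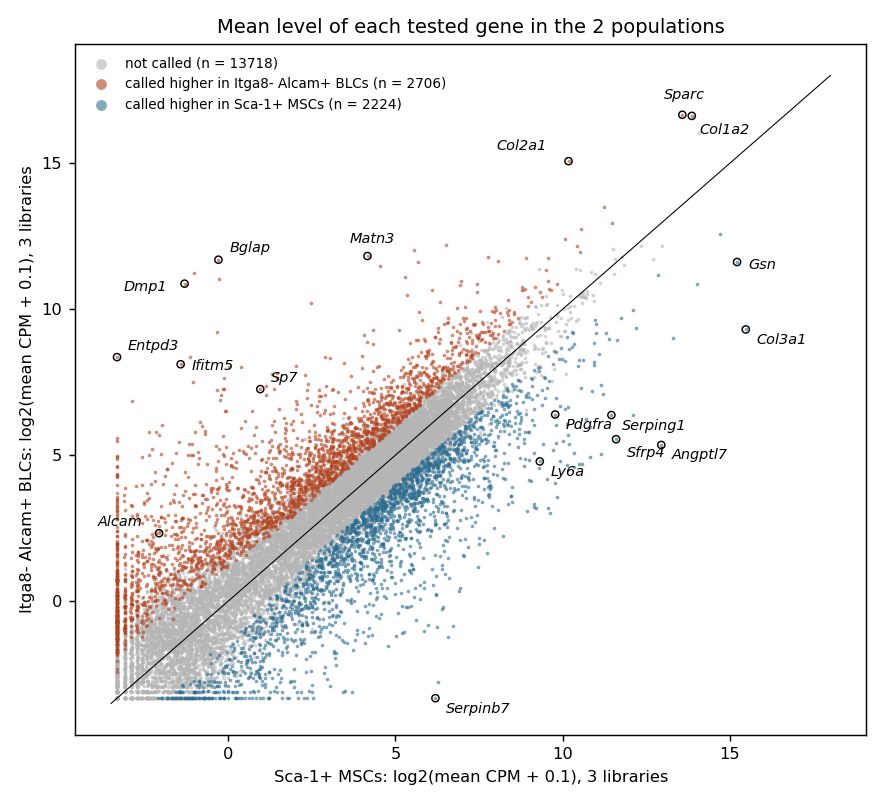
Levels of all 18648 tested genes. Each point is a gene, with log2(mean CPM + 0.1) over 3 Sca-1+ MSC libraries on the x axis and over 3 Itga8- BLC libraries on the y axis; the 2706 genes called higher in Itga8- BLCs are red, the 2224 called higher in Sca-1+ MSCs blue, and the line marks equal levels. Dmp1, Bglap and Entpd3 are far above the line, and Serpinb7, Col3a1 and Gsn far below it.

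Every transcription factor of the osteoblast list was called. Of 12 factors, 11 were higher in Itga8- BLCs and Zfp521 was lower, with a median log2 fold change of 3.83 (3.23 without Itga8- BLC replicate 3). With the length trend removed 9 were higher, since Cebpb and Dlx6 were then not called. Sp7 (chr15:102356606-102367182, minus strand), which is required for osteoblast formation, was at 111, 203.5 and 145 CPM in Itga8- BLCs and at 1.94, 1.63 and 1.97 CPM in Sca-1+ MSCs, a log2 fold change of 6.37 ± 0.51 (FDR = 1.91e-05). Runx2, which acts before Sp7, was at 35.9, 85.1 and 93.4 CPM against 2.16, 3.56 and 1.69 CPM, with a log2 fold change of 4.85 ± 0.47 (FDR = 5.69e-05). Both factors were therefore present in each Itga8- BLC library and at a few CPM in each Sca-1+ MSC library. The Wnt-responsive factors Lef1 and Tcf7 were at 68.8 ± 11.9 (mean ± SD, n = 3) and 67.1 ± 11.1 CPM in Itga8- BLCs and at 3.205 ± 1.204 and 3.55 ± 2.09 CPM in Sca-1+ MSCs, with log2 fold changes of 4.42 and 4.24. Atf4 and Cebpb, which many cells use, had smaller differences of 2.03 and 1.39. That of Cebpb was no longer called once the length trend was removed (0.8043, FDR = 0.105). Zfp521, a zinc finger protein that restrains Runx2, was at 13.25, 35.1 and 6.355 CPM in Itga8- BLCs and 152.5, 173 and 152 CPM in Sca-1+ MSCs, a log2 fold change of -3.13 ± 0.73 (FDR = 0.0105), or -4.06 without Itga8- BLC replicate 2. The homeobox gene Dlx6 was called at a very low level (mean 0.599 CPM against 0.0509 CPM), and its libraries overlapped. Its call was lost without Itga8- BLC replicate 2 or 3 or Sca-1+ MSC replicate 1 or 3 (FDRs of 0.1302, 0.1885, 0.191 and 0.192), with the length trend removed (FDR = 0.106) and in the fit of only the 6 libraries (FDR = 0.129). Over the 3 counts of Sca-1+ MSCs, all in replicate 2, the ratio was 11.5 (95% exact counting interval 3.61 to 58.4), and without Sca-1+ MSC replicate 3 it was 7.33.

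Genes of bone matrix and mineralisation were higher in Itga8- BLCs for 16 of 23 tested members and higher in Sca-1+ MSCs for 1, with a median log2 fold change of 2.545. Osteocalcin, the bone-specific calcium-binding protein, showed the largest differences. Bglap (chr3:88383501-88384464, minus strand) was at 1753, 1176 and 6983 CPM in Itga8- BLCs and 0.775, 0.2035 and 1.17 CPM in Sca-1+ MSCs, a log2 fold change of 12.15 ± 1.345 (FDR = 0.000117). Its neighbour Bglap2, a near-identical copy, was at 974.5, 660 and 4670 CPM against 0.719, 0.305 and 1.17 CPM. Bglap3 was at 0.996, 1.85 and 22.2 CPM in Itga8- BLCs with no count in any Sca-1+ MSC library, at least 54.65-fold above the floor of 3 counts per library, or at least 9.31-fold without replicate 3. Of the 50-base words of Bglap and Bglap2, 43.4% and 11.85% occur in no other gene, so the division of reads among the copies is uncertain. The level of Bglap in replicate 3 was several times that of the other BLC libraries, and without this library the log2 fold change was 10.98 for Bglap and 10.1 for Bglap2, where it had been 11.47. Ifitm5, a membrane protein of mineralising osteoblasts, was at 149, 122 and 558 CPM and 0.332, 0.254 and 0.234 CPM, with a log2 fold change of 9.96 ± 0.88 (FDR = 3.58e-05), or 8.93 without replicate 3. Alkaline phosphatase Alpl, which releases phosphate for mineral, varied little between libraries of a population. It was at 1045, 1305 and 1321 CPM in Itga8- BLCs and 69.05, 66.6 and 105.5 CPM in Sca-1+ MSCs. Its log2 fold change was 3.93 ± 0.43 (FDR = 0.000112). Pth1r, the parathyroid hormone receptor, was at 496, 739 and 731.5 CPM and 84.9, 66.99 and 77.9 CPM, a log2 fold change of 3.097 ± 0.38 (FDR = 0.000228).

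The major structural proteins of bone were abundant in both populations, and the difference between them was smaller. Ibsp, bone sialoprotein, was at 3076, 2628 and 4681 CPM in Itga8- BLCs and 380.5, 438 and 602 CPM in Sca-1+ MSCs, a log2 fold change of 2.87 ± 0.42 (FDR = 0.0007075). Sparc, osteonectin, was at 63071, 61487 and 184257 CPM against 10561, 12130.4 and 13869 CPM, with a log2 fold change of 3.08 ± 0.47 (FDR = 0.000945), which fell to 2.35 without replicate 3. Col1a2 was at 53363, 197834 and 49738 CPM and 13258, 15647 and 15532 CPM, a log2 fold change of 2.76 ± 0.72 (FDR = 0.0189), of which 1.76 was left without replicate 2. Replicate 3 thus held the highest level of Sparc and replicate 2 that of Col1a2, which stayed called without it (FDR = 0.06975). Col1a1, the partner chain of type I collagen, was at 75945, 107157 and 16656 CPM and 15135, 18954 and 17694 CPM, and the lowest BLC library lay within the range of the MSC libraries. It was not called (log2 fold change 1.95 ± 0.89, FDR = 0.142). Without Itga8- BLC replicate 3 it was called at 2.41 (FDR = 0.09702), as it was with DESeq2 (1.93, FDR = 0.0695), in the fit of only the 6 libraries (1.92, FDR = 0.0385) and with the length trend removed (2.13, FDR = 0.0661). Spp1, osteopontin, was at 2775, 1962 and 7928 CPM against 2767, 2242 and 3653 CPM and was not called either (FDR = 0.446). Col22a1, Cthrc1 and Serpinf1 were higher in Itga8- BLCs by 5.05, 4.199 and 2.27 on the log2 scale. Without replicate 3 Cthrc1 stood at 3.32 and Serpinf1 at 1.43, and without replicate 2 Col22a1 stood at 3.75. Enpp1, which makes the mineralisation inhibitor pyrophosphate, was the member called higher in Sca-1+ MSCs, at 203, 289 and 90.95 CPM in Itga8- BLCs and 420.1, 556 and 651 CPM in Sca-1+ MSCs (log2 fold change -1.48 ± 0.49, FDR = 0.0519). This call was lost without Itga8- BLC replicate 1 or 3 or Sca-1+ MSC replicate 2 or 3, with FDRs of 0.117, 0.156, 0.115 and 0.141. In TPM, where the counts are also divided by exon length, the level of Bglap in Itga8- BLCs was 9469, 6252 and 25651.2. That of Col1a1 was 38621.6, 53667.5 and 5762 TPM and that of Col1a2 14333.0, 52331.3 and 9087 TPM. Bglap, counted without its copy Bglap2, was thus below both collagens in replicates 1 and 2 and above both in replicate 3. Division by exon length does not remove a length trend that differs between libraries, and this trend was steepest in replicate 3. Its part in the order was not tested. Dmp1, at 1973, 2039 and 1860 TPM, was below Bglap, Col1a1 and Col1a2 in every Itga8- BLC library.

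**Figure D3:**
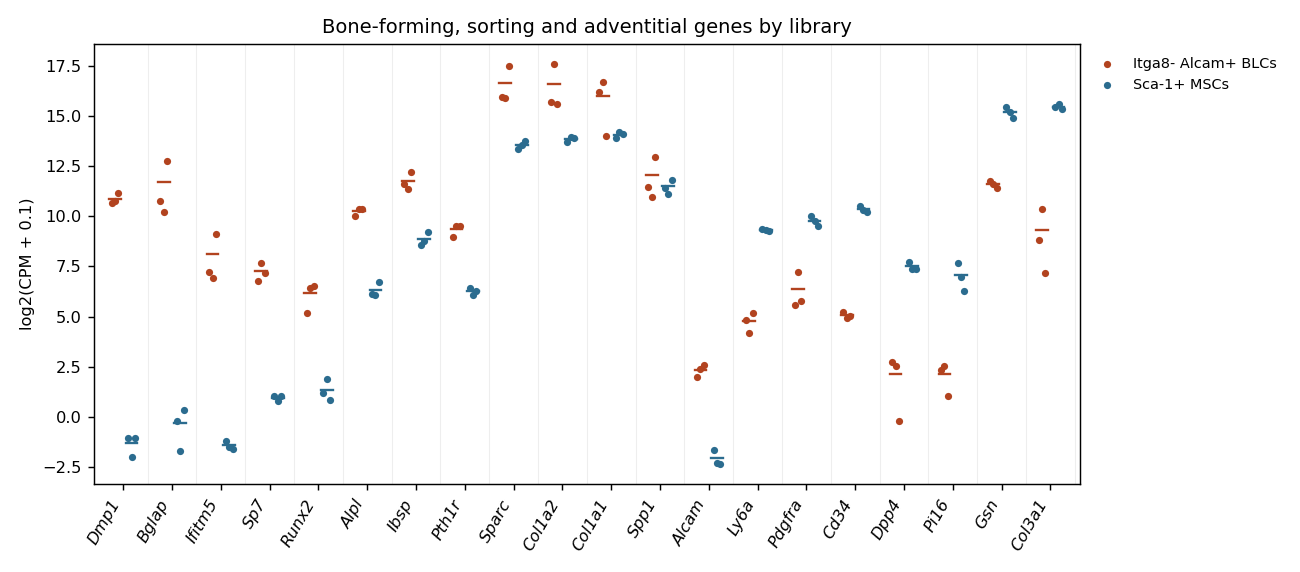
Bone-forming, sorting and adventitial genes by library. Each point is a library, the y axis is log2(CPM + 0.1) and each bar stands at the group mean CPM on that scale, with 3 Itga8- BLC libraries in red and 3 Sca-1+ MSC libraries in blue. From Dmp1 to Col1a2 and for Alcam every red point is above every blue point, Col1a1 and Spp1 overlap, and from Ly6a to Col3a1 every red point lies below every blue point.

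Genes of osteocytes were higher in Itga8- BLCs for 7 of 15 tested members and lower for 2, with a median log2 fold change of 2.36, or 1.72 with Dkk1 and the other members near 0 in Sca-1+ MSCs set to their bounds. Sost, also of this list, reached 0.5 CPM in none of the 12 libraries and was not tested. Dmp1 had a log2 fold change of 12.56 ± 0.87 (FDR = 6.81e-06), larger than that of any other member. Dkk1, a secreted Wnt inhibitor, was at 10.5, 15.9 and 33.1 CPM in Itga8- BLCs and without a count in Sca-1+ MSCs, at least 129.7-fold above the floor (FDR = 0.00461), or at least 86.4-fold without Itga8- BLC replicate 3. Mepe, a matrix phosphoglycoprotein of embedded osteocytes, was at only 4.38, 2.04 and 2.28 CPM against 0, 0.102 and 0.0469 CPM. The phosphate-regulating hormone gene Fgf23 was at 0, 0.556 and 0.05995 CPM in Itga8- BLCs and was not called (FDR = 0.256). Mepe and Fgf23 were thus low in Itga8- BLC libraries with 1634, 1715 and 2265 CPM of Dmp1. Phex, a membrane peptidase, was at 44.97, 225.5 and 46.5 CPM and 42.7, 25.9 and 27.5 CPM without a call (FDR = 0.213), but was called in the fit of only the 6 libraries (1.69, FDR = 0.0769). Irx5 and Ptprz1 were higher in Itga8- BLCs by 3.965 and 4.11, the latter by 3.04 without Itga8- BLC replicate 2. Fam20c, the kinase of secreted phosphoproteins, was called at 1.21 (FDR = 0.0468) but in no fit without Itga8- BLC replicate 1 or 2 or Sca-1+ MSC replicate 1 or 3 (FDRs of 0.123, 0.1201, 0.145 and 0.129). Fbln7 was the clearer of the genes called higher in Sca-1+ MSCs (-1.41, FDR = 0.0305), since Npr3, at 0.228 against 1.199 CPM, lost its call in 5 of the fits without 1 library (all but that without Itga8- BLC replicate 1, where it was -3.56). The median of the list also depended on Itga8- BLC replicate 2, without which it was 1.00, on Sca-1+ MSC replicate 3, without which it was 1.76, and on the tool, as it was 1.31 with limma-trend.

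Outside these lists, the 10 largest differences toward Itga8- BLCs included several genes with no count in Sca-1+ MSCs. Entpd3 (chr9:120539818-120568327, plus strand), an ectonucleotidase that hydrolyses extracellular ATP, was at 228, 389 and 364 CPM and at 0 in all Sca-1+ MSC libraries, at least 2137-fold above the floor (FDR = 4.16e-06). Car3, carbonic anhydrase of muscle and fat, was at 1555, 1650 and 4017 CPM and 0.996, 0.0509 and 0.141 CPM, with a log2 fold change of 12.59 ± 1.375 (FDR = 0.000111). Without Sca-1+ MSC replicate 1, the highest of its group, it was 14.52. Pgbd5, a transposase-derived gene, was at 45.9, 58.9 and 38.97 CPM, Slc13a5, the citrate transporter, at 57.9, 35.1 and 41.1 CPM and Fstl4, a follistatin-like protein, at 21.6, 32.4 and 37.8 CPM. None of the 3 had a count in Sca-1+ MSCs, which placed them at least 313-, 292- and 199.8-fold higher in Itga8- BLCs. Gjb6, a gap junction connexin, and Tmem182 were likewise without a count in Sca-1+ MSCs, at 28.8 ± 2.82 and 24.45 ± 8.599 CPM in Itga8- BLCs. Among the most abundant genes called toward Itga8- BLCs were also the matricellular signalling proteins Ccn1 and Ccn2, at 5843, 5201 and 9631 and 3918, 5006 and 4946 CPM against 1310, 1474 and 1699 and 946, 1003 and 2204 CPM, and Actb, cytoplasmic actin, at 1734, 5450 and 9181 CPM against 1044, 1362 and 785 CPM. The call of Actb was lost without Itga8- BLC replicate 3 (FDR = 0.116) or Sca-1+ MSC replicate 3 (FDR = 0.1155). The pseudogene Ftl2-ps met the rule for the largest differences, but nearly all of its counts were in replicate 1 (92.98, 0.0463 and 0.2998 CPM). Only 12.3% of its 50-base words occur in no other gene, so its level is uncertain.

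Promoters of genes at both ends of the comparison are shown to place the named genes on the genome and to show which sequence letters occur near their starts. The windows run from 250 bases before to 50 bases after a start of the gene in RefSeq (GRCm38.p6), are written 5′ to 3′ on the strand of the gene, and carry in capitals the motifs found in them. Of the 2 windows listed for Dmp1, the one nearest the start of the gene in GENCODE is shown. The motifs searched on both strands were the RUNX core ACCACA and the TATA box TATAAA. Bglap, Dmp1 and Ibsp stand for the bone-forming genes, and Serpinb7 and Col3a1 for genes of Sca-1+ MSCs.
Bglap, chr3:88384417-88384716, minus strand: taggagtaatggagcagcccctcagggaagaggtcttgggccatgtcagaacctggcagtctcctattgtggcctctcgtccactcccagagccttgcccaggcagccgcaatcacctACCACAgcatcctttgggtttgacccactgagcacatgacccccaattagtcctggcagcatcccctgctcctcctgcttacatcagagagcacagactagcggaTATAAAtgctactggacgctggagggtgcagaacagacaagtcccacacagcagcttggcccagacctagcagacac
Dmp1, chr5:104202367-104202666, plus strand: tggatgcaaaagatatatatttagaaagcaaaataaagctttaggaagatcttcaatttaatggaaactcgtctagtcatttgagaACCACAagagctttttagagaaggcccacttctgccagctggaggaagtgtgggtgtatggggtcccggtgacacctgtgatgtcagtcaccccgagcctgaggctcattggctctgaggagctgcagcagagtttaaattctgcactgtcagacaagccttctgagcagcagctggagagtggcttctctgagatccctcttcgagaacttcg
Ibsp, chr5:104299037-104299336, plus strand: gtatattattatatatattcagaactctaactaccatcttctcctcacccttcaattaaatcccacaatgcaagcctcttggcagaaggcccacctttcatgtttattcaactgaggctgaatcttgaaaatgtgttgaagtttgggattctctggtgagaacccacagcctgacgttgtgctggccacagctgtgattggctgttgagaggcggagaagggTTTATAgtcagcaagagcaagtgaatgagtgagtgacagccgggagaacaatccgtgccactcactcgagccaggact
Serpinb7, chr1:107422439-107422738, plus strand: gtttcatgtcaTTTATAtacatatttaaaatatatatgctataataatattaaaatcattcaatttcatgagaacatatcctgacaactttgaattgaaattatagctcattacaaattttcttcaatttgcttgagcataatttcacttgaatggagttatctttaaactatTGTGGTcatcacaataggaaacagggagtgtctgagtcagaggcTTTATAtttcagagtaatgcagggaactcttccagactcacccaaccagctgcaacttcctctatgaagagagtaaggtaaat
Col3a1, chr1:45311288-45311587, plus strand: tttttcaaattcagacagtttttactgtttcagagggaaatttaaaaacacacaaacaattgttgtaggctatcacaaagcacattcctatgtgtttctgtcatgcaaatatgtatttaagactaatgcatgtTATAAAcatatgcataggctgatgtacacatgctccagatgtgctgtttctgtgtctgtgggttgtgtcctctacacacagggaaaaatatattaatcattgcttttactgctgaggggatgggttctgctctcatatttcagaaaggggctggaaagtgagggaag
The Bglap window held a RUNX core 132 bases and a TATA box 27 bases before the start (positions -132 and -27), the Ibsp window a TATA box on the other strand at -28, and the Dmp1 window a RUNX core at -164. The window listed farther upstream for Dmp1 held neither motif. Serpinb7, called in the opposite direction, also had a RUNX core (-77) and 2 TATA boxes (-239 and -33), all on the other strand. Its window is built around the RefSeq start at position 107422689 of chromosome 1. This lies inside the span that GENCODE gives the gene, which begins at 107399655, so these letters belong to a start within that span. The same holds for Ibsp, whose RefSeq start is at 104299287 of chromosome 5 and whose GENCODE span begins at 104299171. Col3a1 had a TATA box at -117. These letters did not separate the populations. Counted in the first window listed for each gene, the RUNX core was present in 13.25% of 1917 matched promoters of genes higher in Itga8- BLCs, in 12.65% of 1526 of genes higher in Sca-1+ MSCs, in 12.9% of 12631 of tested genes and in 16.9% of all 27025 promoters of the table. The TATA box was present in 9.34%, 9.11%, 7.94% and 14.2% of the same promoters.

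Enzymes and chaperones that fold, crosslink and secrete collagen were called higher in Itga8- BLCs for 9 of 28 members and higher in Sca-1+ MSCs for 3, with a median log2 fold change of 0.86 (0.54 without Itga8- BLC replicate 2). Crtap, a component of the prolyl 3-hydroxylase complex, was at 462, 386 and 815 CPM in Itga8- BLCs and 100.3, 109 and 103.5 CPM in Sca-1+ MSCs, a log2 fold change of 2.41 ± 0.2991 (FDR = 0.000245). Creb3l1, the factor that drives secretory genes in osteoblasts, had a log2 fold change of 2.099 (FDR = 0.00576), and the prolyl 4-hydroxylase P4ha1 one of 1.66 (FDR = 0.00154). Fkbp10, Plod2 and Ppib were at 1371 ± 34.04, 889.7 ± 205 and 669 ± 351.5 CPM in Itga8- BLCs and at 496 ± 72.2, 332 ± 62.3 and 218 ± 20.15 CPM in Sca-1+ MSCs. The collagen chaperone Serpinh1 was the most abundant of the list, at 11807, 6411 and 5200 CPM against 3012, 2791 and 2643 CPM, with a log2 fold change of 1.47 (FDR = 0.0951), and its call was lost whichever of the 6 libraries was left out. Among crosslinking enzymes, Loxl1, the lysyl oxidase of elastic fibres, was higher in Sca-1+ MSCs, at 15.5, 7.88 and 5.16 CPM in Itga8- BLCs and 184, 174.5 and 144.5 CPM in Sca-1+ MSCs, a log2 fold change of -4.14 ± 0.4988 (FDR = 0.000203) that was -4.73 without Itga8- BLC replicate 1. P4ha3 was lower in Itga8- BLCs by a log2 fold change of -1.71, and P3h2 by one of -1.499, a call lost without Itga8- BLC replicate 3 or Sca-1+ MSC replicate 3 (FDRs of 0.1297 and 0.122). Lox itself was at 519.8, 1999 and 816.5 CPM and 474, 461 and 783.5 CPM and was not called (FDR = 0.297).

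Cartilage genes were higher in Itga8- BLCs for 14 of 19 tested members and higher in Sca-1+ MSCs for 1, with a median log2 fold change of 4.89 (4.06 without Itga8- BLC replicate 2 and 4.296 with limma-trend), and their level varied widely between BLC libraries. The summed level of the list was 65097, 108214 and 27273.5 CPM in Itga8- BLC replicates 1 to 3 and 10847 to 12227 CPM in Sca-1+ MSCs. Col2a1, the main collagen of hyaline cartilage, was at 34294, 63149 and 5269 CPM against 1247, 973 and 1240 CPM, a log2 fold change of 4.89 ± 1.004 (FDR = 0.005425), and 4.06 without replicate 2. Matn3, a cartilage matrix adaptor, was at 4242, 3468 and 3104 CPM and 24.8, 1.07 and 27.6 CPM, with a log2 fold change of 7.66 ± 1.01 (FDR = 0.0003575). Sox9, the factor of chondrocyte formation, was at 658, 830.1 and 456 CPM and 116, 154 and 148 CPM (log2 fold change 2.22, FDR = 0.00475). Acan, aggrecan, was at 659.9, 1522 and 300.4 CPM and 118.5, 168 and 127.5 CPM, with a log2 fold change of 2.585 that was 1.76 without replicate 2. Cnmd, chondromodulin, and Col9a3, a chain of type IX collagen, were at 4670 ± 1486 and 4187 ± 1534 CPM in Itga8- BLCs. Col10a1, the collagen of hypertrophic chondrocytes, was at 12.7, 192 and 26.4 CPM and 15.99, 5.596 and 10.7 CPM and was not called (FDR = 0.257), except in the fit of only the 6 libraries (2.80, FDR = 0.0565). Prg4, the lubricin of joint surfaces and tendon sheaths, was the member higher in Sca-1+ MSCs, at 198.5, 401 and 303 CPM in Itga8- BLCs and 739.7, 1367 and 1135 CPM in Sca-1+ MSCs (log2 fold change -1.84, FDR = 0.00316). Comp was abundant in both, at 3980, 5223 and 4656 CPM and 7655, 8527 and 7773 CPM, without a call (FDR = 0.264). The cartilage list was also high in Itga8+ MSCs, with 32704 to 148842 CPM. Col2a1 did not differ past the threshold between the Alcam+ populations (Itga8- BLCs over Itga8+ MSCs, log2 fold change -0.75, FDR = 0.847). Chondrocyte genes and osteoblast genes were therefore high in the same Itga8- BLC libraries, and the part of cartilage cells in the bone matrix results was not tested.

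**Figure D4:**
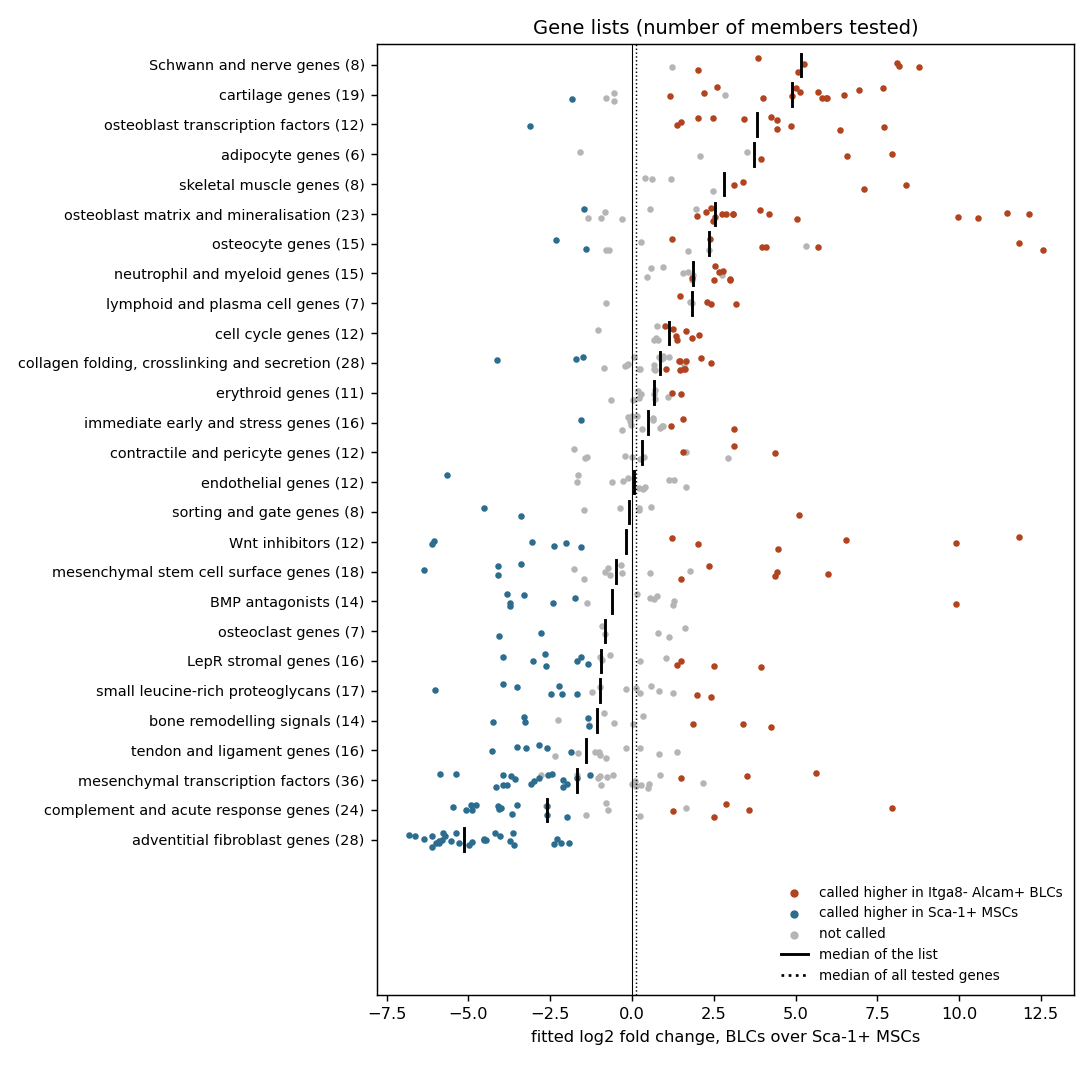
Fitted log2 fold change of every tested member of the 27 gene lists. Each point is a gene, the x axis is the log2 fold change of Itga8- BLCs over Sca-1+ MSCs, red and blue points were called higher in Itga8- BLCs and in Sca-1+ MSCs, grey points were not called, black bars are list medians and the dotted line is the median of all tested genes (0.12). Schwann, cartilage and osteoblast factor genes are at the top, and all 28 adventitial genes are to the left.

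Inhibitors of Wnt signalling were divided between the populations, with 6 of 12 tested members called in each direction and no tested member without a call. Sost, the other listed member, was not tested, as it reached 0.5 CPM in none of the 12 libraries. Sfrp5, a secreted Frizzled-related protein, was at 176, 253 and 234 CPM in Itga8- BLCs and 2.32, 1.53 and 3.28 CPM in Sca-1+ MSCs, a log2 fold change of 6.535 ± 0.53 (FDR = 2.04e-05). Its relative Sfrp4 was the reverse, at 68.1, 36.3 and 35.25 CPM and 3066, 3472 and 2723 CPM, with a log2 fold change of -6.05 ± 0.38 (FDR = 4.16e-06). Notum, which removes a lipid from Wnt proteins, was at 176, 190.3 and 126.5 CPM and 5.53, 9.72 and 7.12 CPM (log2 fold change 4.46, FDR = 0.00175), although 38.1% of its exon bases overlap another gene and the strand setting of the counts is not given in the sources used here. Frzb was higher in Itga8- BLCs by 2.03, and Sostdc1, also an antagonist of BMPs, was at 2.19, 4.17 and 9.23 CPM in Itga8- BLCs and at 0 in Sca-1+ MSCs. Within the Dkk family, Dkk1 was detected in Itga8- BLCs and not in Sca-1+ MSCs, as given above, while Dkk2 was at 1.195, 1.39 and 0.5995 CPM in Itga8- BLCs and 79.8, 77.6 and 64.85 CPM in Sca-1+ MSCs, a log2 fold change of -6.11 ± 0.87 (FDR = 0.000581). Dkk3 was lower in Itga8- BLCs by a log2 fold change of -3.07 (FDR = 5.96e-05), Igfbp4 by one of -2.01 and Sfrp2 by one of -2.375 (-3.34 without Itga8- BLC replicate 1). The smaller differences rested on individual libraries. Wif1 was at 809, 673 and 874 CPM and 278, 358 and 381 CPM and lost its call without Sca-1+ MSC replicate 1 (FDR = 0.132) or once the length trend was removed (0.83, under the fold threshold). Sfrp1, at 20.9, 18.03 and 7.67 CPM and 52.7, 47.3 and 38.6 CPM, lost it without Itga8- BLC replicate 3 (FDR = 0.112).

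**Figure D5:**
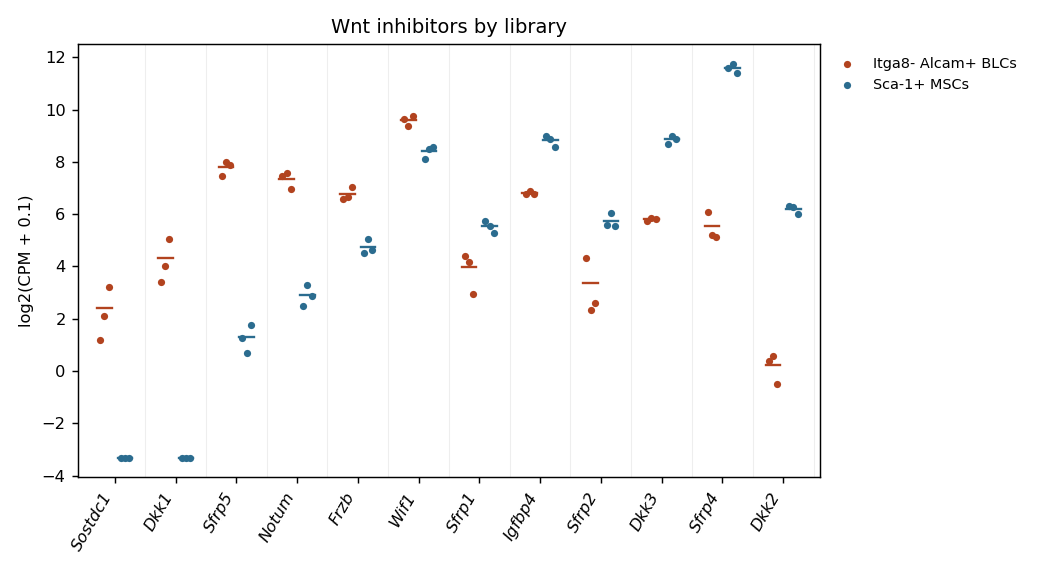
Wnt inhibitors by library. Each point is a library, the y axis is log2(CPM + 0.1) and each bar stands at the group mean CPM on that scale, with 3 Itga8- BLC libraries in red and 3 Sca-1+ MSC libraries in blue. The 6 genes from Sostdc1 to Wif1 are higher in Itga8- BLCs and the 6 from Sfrp1 to Dkk2 higher in Sca-1+ MSCs, with no overlap of libraries for any of the 12.

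Antagonists of BMPs leaned toward Sca-1+ MSCs, where 6 of 14 members were higher, against 1 in Itga8- BLCs (Sostdc1), with a median log2 fold change of -0.61. Fstl1, a secreted follistatin-like glycoprotein, was at 159, 217.5 and 125.5 CPM in Itga8- BLCs and 2295, 2206 and 2219 CPM in Sca-1+ MSCs, a log2 fold change of -3.74 ± 0.37 (FDR = 5.92e-05). Bmper and Fst, which bind BMPs and activins outside the cell, had log2 fold changes of -3.83 and -3.32, Nbl1 one of -2.41 and Twsg1 one of -1.75. Nog and Grem1 were low in both populations, at 6.57, 3.66 and 0.5396 CPM for Nog and 2.04, 1.715 and 2.64 CPM for Grem1 in Itga8- BLCs and 0.719, 2.34 and 1.45 and 0.111, 1.63 and 1.97 CPM in Sca-1+ MSCs, and were not called (FDRs of 0.345 and 0.472). Of 14 signals between bone-forming and bone-resorbing cells, 3 were higher in Itga8- BLCs and 5 in Sca-1+ MSCs, with a median of -1.08. Csf1, the growth factor of macrophages and osteoclast precursors, was at 67.2, 52.3 and 20.4 CPM in Itga8- BLCs and 419, 562 and 384 CPM in Sca-1+ MSCs, a log2 fold change of -3.29 ± 0.6026 (FDR = 0.00285). Il34, the other ligand of its receptor, had a log2 fold change of -1.36 (FDR = 0.00532). Both ligands were thus higher in Sca-1+ MSCs. Tnfsf11 (RANKL), the inducer of osteoclasts, was low, at 2.04, 5.24 and 4.497 CPM against 2.88, 3.001 and 3.42 CPM. Its decoy receptor Tnfrsf11b (osteoprotegerin) was at 282, 232.5 and 310 CPM against 312, 442.5 and 449 CPM. Neither was called (FDRs of 0.552 and 0.209). Sema3a, a guidance molecule that protects bone, was lower in Itga8- BLCs by a log2 fold change of -3.27 (FDR = 0.00717). Sema4d and Il11 were higher in Itga8- BLCs by 4.26 and 3.39, of which 3.41 was left without Itga8- BLC replicate 2 and 4.27 stood without Sca-1+ MSC replicate 2. Il6, lower in Itga8- BLCs (-1.33, FDR = 0.0679), was not called without Itga8- BLC replicate 1 or 2 or Sca-1+ MSC replicate 1 or 2. Efnb2, higher in Itga8- BLCs (1.85, FDR = 0.0973), kept its call, among the fits without 1 library, only in that without Itga8- BLC replicate 3 (2.33).

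All 28 tested genes of adventitial fibroblasts were called higher in Sca-1+ MSCs, with a median log2 fold change of -5.14, and the summed level of the list was 4226 to 4575 CPM in Itga8- BLCs and 49307 to 66931 CPM in Sca-1+ MSCs. Ly6a belongs to both this list and the sort. Cd34, a sialomucin of progenitor surfaces, was at 37.85, 30.03 and 32.02 CPM in Itga8- BLCs and 1444, 1286 and 1182 CPM in Sca-1+ MSCs, a log2 fold change of -5.29 ± 0.41 (FDR = 1.68e-05). Pi16 and Dpp4, which mark adventitial progenitors in many organs, were at 4.98, 5.75 and 1.98 and 6.62, 5.65 and 0.779 CPM in Itga8- BLCs and at 201, 126 and 77.8 and 211, 168 and 166 CPM in Sca-1+ MSCs. Clec3b had the largest difference of the list, with 0.299, 0.788 and 1.199 CPM against 78.5, 109 and 69.3 CPM and a log2 fold change of -6.81 ± 0.67 (FDR = 5.96e-05). The libraries of the populations were far apart for each of these genes. Matrix genes of the list included Mfap5, a microfibril protein (-6.37), Fbn1, fibrillin (-6.11, or -7.11 without Itga8- BLC replicate 2), Col14a1 (-6.62), Tnxb, tenascin-X (-6.13), Dpt, dermatopontin (-5.54), and Fbln2 (-5.79). Without the same library, Col14a1 was at -7.78 and Tnxb at -6.74. The cytokine Il33 was at 6.42, 3.34 and 3.96 CPM and 237, 254.5 and 391 CPM (-6.01), and Igfbp5 at 19.9, 57.9 and 13.4 CPM and 1730, 1932 and 1783 CPM (-5.9, or -6.81 without Itga8- BLC replicate 2). Gsn, the actin-severing gelsolin, was the most abundant member, at 3513, 3140 and 2729 CPM in Itga8- BLCs and 44807, 38057 and 30679.6 CPM in Sca-1+ MSCs, a log2 fold change of -3.597 ± 0.36 (FDR = 5.96e-05). The smallest differences were those of Anxa3 (-1.92), Ackr3 (-2.17), Col15a1 (-2.29) and the hyaluronan synthase Has1 (-2.396). Without Itga8- BLC replicate 3, Col15a1 was not called (FDR = 0.109).

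The largest differences toward Sca-1+ MSCs were in genes of other kinds. Serpinb7 (chr1:107399655-107452689, plus strand), a serine protease inhibitor, was at 70.2, 56.5 and 92.5 CPM in Sca-1+ MSCs and without a count in Itga8- BLCs, at least 468-fold above the floor (FDR = 0.0003998). Col6a6, a chain of type VI collagen, was at 79.2, 106 and 44.3 CPM in Sca-1+ MSCs and had 3 counts in Itga8- BLCs, all in replicate 2, a ratio of 1468 (95% exact counting interval 502 to 7120). This ratio was 963 without Itga8- BLC replicate 1, and without replicate 2 Col6a6 was at least 464.5-fold above the floor. Impg2, Colec10 and Fgf10, the last a growth factor of mesenchyme, were at 12.98 ± 3.16, 11.1 ± 2.83 and 10.6 ± 0.858 CPM in Sca-1+ MSCs and had 1 count each in Itga8- BLCs. Complement component C7 was at 0.598, 0.371 and 0 CPM and 138, 64.8 and 80.6 CPM, Ppl, periplakin, at 0.0996, 1.16 and 0.1199 CPM and 114, 106 and 95.6 CPM, and Scg3, a granin, at 0.747, 0.463 and 0.1199 CPM and 65.1, 76.1 and 84.7 CPM. The interferon-induced gene Ifi205 was at 0.199, 0.0927 and 0.899 CPM and 68.9, 50.05 and 52.95 CPM. The log2 fold changes of C7, Ppl and Scg3 were -8.125, -7.78 and -7.365, and -8.898, -9.89 and -7.98 without Itga8- BLC replicates 1, 2 and 1, respectively. Among abundant genes, Col3a1, the collagen of pliable connective tissue, was at 450.2, 1297 and 146 CPM in Itga8- BLCs and 44461, 50189 and 41326 CPM in Sca-1+ MSCs, a log2 fold change of -6.17 ± 1.06 (FDR = 0.00187), or -7.29 without replicate 2. Angptl7 was at 51.8, 31.6 and 38.4 CPM and 4950, 4395 and 14300.3 CPM, with a log2 fold change of -7.6 ± 1.04 (FDR = 0.000466), or of -6.85 without Sca-1+ MSC replicate 3, the highest. Ecm1 and Timp2, an inhibitor of metalloproteinases, were lower in Itga8- BLCs by log2 fold changes of -5.75 and -2.86. Fn1, fibronectin, was at 827, 4330 and 437 CPM and 16463, 20730.4 and 12742 CPM, with Itga8- BLC replicate 2 above the other BLC libraries. Its call (-3.16, FDR = 0.0394) was lost without replicate 1 (FDR = 0.1255) or replicate 3 (FDR = 0.109). Without replicate 2 it was -4.76. Col6a1 (-2.12, or -2.85 without Itga8- BLC replicate 2) lost its call without Itga8- BLC replicate 1 or 3 or Sca-1+ MSC replicate 2. In TPM, Gsn was at 53872.8, 44872.1 and 35365.1 in Sca-1+ MSCs, above Col3a1 (17192.7, 19032.2 and 15321.1) and Dcn (16304.9, 15268.0 and 19015.0) in every library. Angptl7 was at 8712, 7585 and 24126.5 TPM, below Col3a1 and Dcn in replicates 1 and 2 and above them in replicate 3.

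Small leucine-rich proteoglycans, which bind collagen fibrils and growth factors, were higher in Sca-1+ MSCs for 7 of 17 members and in Itga8- BLCs for 2, with a median log2 fold change of -0.96, or -0.31 without Sca-1+ MSC replicate 1. Aspn, asporin, was at 5.73, 10.1 and 11.45 CPM in Itga8- BLCs and 633, 499.9 and 634.5 CPM in Sca-1+ MSCs, a log2 fold change of -6.02 ± 0.72 (FDR = 0.000183). Ogn, Podn and the abundant Prelp had log2 fold changes of -2.48, -3.94 and -1.69. Dcn, decorin, was at 2894, 3928 and 11321 CPM and 25078, 23946 and 30504 CPM, a log2 fold change of -2.13 (FDR = 0.0359), without a call once Itga8- BLC replicate 1 was left out (FDR = 0.107) or the length trend removed (FDR = 0.123), and at -2.96 without Itga8- BLC replicate 3. Omd, osteomodulin of bone matrix, and Epyc, epiphycan of cartilage, were the members higher in Itga8- BLCs, at 155, 220.2 and 590.2 and 143, 127 and 167 CPM against 63.6, 58.04 and 58.5 and 32.3, 30.7 and 46.15 CPM. However, 40.65% of the exon bases of Epyc overlap another gene. Omd stood at a log2 fold change of 2.42, and at 1.64 without replicate 3. Lum, Fmod and Bgn were abundant and not called (FDRs of 0.864, 0.732 and 0.0497), of which Bgn passed both thresholds after removal of the length trend (1.18, FDR = 0.0154).

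Of 16 tendon and ligament genes, 6 were higher in Sca-1+ MSCs and none in Itga8- BLCs, with a median log2 fold change of -1.40. The study picked Mfap4, Tnmd, Chodl and Kera of this list from these libraries and also named Ptx4 as a candidate, so they are not independent evidence of its direction. Cilp, a matrix protein of cartilage and tendon, was at 436, 883 and 243 CPM in Itga8- BLCs and 9445, 10604 and 10300.0 CPM in Sca-1+ MSCs, a log2 fold change of -4.28 ± 0.8988 (FDR = 0.00618), or -4.94 without Itga8- BLC replicate 2. Thbs4, Postn and Kera had log2 fold changes of -2.61, -3.24 and -3.52. Cilp2 (-2.86, or -3.96 without Itga8- BLC replicate 2) lost its call without Itga8- BLC replicate 1 (FDR = 0.138) or replicate 3 (FDR = 0.1297). The tendon factor Mkx was at 7.32, 14.9 and 12.9 CPM and 35.96, 35.35 and 55.4 CPM (-1.85, FDR = 0.00965), and Scx at 17.03, 10.8 and 22.7 CPM and 23.96, 32.2 and 45.4 CPM without a call (FDR = 0.1503). Scx was called with library totals alone (-1.21), in the fit of only the 6 libraries (-1.03) and with the length trend removed (-1.51). Tnmd, tenomodulin, was at 32.9, 20.3 and 33.75 CPM and 73.9, 75.8 and 125.5 CPM and just missed the threshold (FDR = 0.101). It was called lower in Itga8- BLCs under 7 alternatives, with FDRs of 0.054 with DESeq2, 0.0629 with library totals alone, 0.0658 with limma-trend, 0.073 without the filter, 0.00805 in the fit of only the 6 libraries, 0.096 after thinning and 0.0082 with the length trend removed. Mfap4, at 20.6, 13.6 and 28 CPM and 40.2, 41.7 and 26.8 CPM, overlapped between the populations (FDR = 0.181) and was called with the length trend removed (-1.33, FDR = 0.01903). Ptx4, not called here, was higher in Itga8- BLCs with DESeq2 (1.37), with limma-trend (1.45), in the fit of only the 6 libraries (1.36) and with the replicate block (1.57). With the length trend removed, 10 of the 16 were called higher in Sca-1+ MSCs.

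Complement, acute phase and chemokine genes were higher in Sca-1+ MSCs for 13 of 24 members and in Itga8- BLCs for 5, with a median log2 fold change of -2.61. Serping1, the C1 inhibitor, was at 83.1, 71 and 93.9 CPM in Itga8- BLCs and 2908, 2795 and 2706 CPM in Sca-1+ MSCs, a log2 fold change of -5.08 ± 0.28 (FDR = 2.09e-06). The proteases of the C1 complex that it inhibits were also higher in Sca-1+ MSCs, with log2 fold changes of -4.93 for C1s1 and -4.001 for C1ra, as were the central components C3 (-4.06, or -5.03 without Itga8- BLC replicate 2) and C4b (-3.66, or -4.9). C1ra, C1s1 and C4b share words with close relatives, as 49.2%, 78.15% and 65.4% of their 50-base words occur in no other gene, so the assignment of their reads is uncertain. Cd55, a membrane inhibitor of complement, was at 11.1, 11.9 and 12.7 CPM and 363, 344 and 353 CPM (-4.89), whereas Cd59a, which blocks the terminal complex, was higher in Itga8- BLCs, at 37.6, 36.5 and 94.1 CPM and 5.98, 7.58 and 9.465 CPM (2.87, or 2.27 without replicate 3). The monocyte chemokine genes Ccl2 and Ccl7 were at 8.47, 4.125 and 22.9 and 6.72, 2.73 and 7.43 CPM in Itga8- BLCs and at 145.5, 320.5 and 201 and 244, 278 and 222.5 CPM in Sca-1+ MSCs, with log2 fold changes of -4.23 (-5.135 without Itga8- BLC replicate 3) and -5.46. Cxcl1, which attracts neutrophils, had one of -2.61, or -3.41 without Itga8- BLC replicate 3. In contrast, Cxcl14 was higher in Itga8- BLCs (1.255), but not called without Itga8- BLC replicate 1 (0.94, under the fold threshold) or once the length trend was removed (0.7997, FDR = 0.1398). Hp and Lcn2, which neutrophils also make, were higher in Itga8- BLCs by 2.52 and 3.565, the latter by 4.24 without Sca-1+ MSC replicate 1, and Cfd, a gene of fat cells, by a ratio of 266 (73.4 to 2205) over a total of 2 counts in Sca-1+ MSCs. Cfd was at 4.23, 5.65 and 19.1 CPM in Itga8- BLCs, with replicate 3 the highest, and without that library the ratio was 147. Its call was lost without Sca-1+ MSC replicate 2 (FDR = 0.1035).

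Calls among genes used to define mesenchymal stem cells went both ways. Of 18 surface genes, 5 were higher in Itga8- BLCs and 4 in Sca-1+ MSCs, with a median log2 fold change of -0.50. Every Itga8- BLC library was below every Sca-1+ MSC library for 8 and above for 5, against 21.9% and 23.8% of all tested genes. With the replicate block, 3 were called higher in Itga8- BLCs. Tfrc, among the 5, lost its call without Itga8- BLC replicate 1 or 2 or any Sca-1+ MSC library. Besides Pdgfra, Pdgfrb was at 10.7, 41.4 and 2.22 CPM in Itga8- BLCs and 326, 343 and 253.5 CPM in Sca-1+ MSCs, a log2 fold change of -4.08 (FDR = 0.0239), or -5.601 without Itga8- BLC replicate 2. Anpep (CD13) was at 4.38, 1.53 and 0.4796 CPM and 194, 189.9 and 143 CPM (-6.35, or -7.465 without Itga8- BLC replicate 1). Thy1 (CD90) was low, at 0.199, 0.139 and 0.4796 CPM and 4.26, 5.09 and 4.64 CPM. Cdh2, N-cadherin, was the reverse, at 103.5, 179 and 114 CPM and 3.375, 0.2035 and 2.62 CPM, with a log2 fold change of 5.997 ± 0.85 (FDR = 0.000567), and Cd200 was higher in Itga8- BLCs by 2.36. Mcam (CD146), a marker of perivascular cells, was at 4.58, 16.1 and 9.65 CPM and 0.277, 1.17 and 0 CPM (4.38, or 6.204 without Sca-1+ MSC replicate 2). Cd44, Nt5e (CD73), Eng (CD105) and Itgb1 were not called (FDRs of 0.656, 0.293, 0.104 and 0.131). Eng was called lower in Itga8- BLCs under 7 alternatives, with log2 fold changes from -1.957 to -1.77 and FDRs from 0.0257 to 0.0996, and Itgb1 with library totals alone (-1.06) and without Itga8- BLC replicate 2 (-1.16). Nt5e was called higher with the length trend removed (1.003). Of 16 genes of LepR+ stromal cells, 4 were higher in Itga8- BLCs and 7 in Sca-1+ MSCs, with a median of -0.95. Lepr itself was at 8.27, 49.2 and 15.9 CPM and 182, 208 and 214 CPM (-3.04, or -4.11 without Itga8- BLC replicate 2), and secreted factors of the haematopoietic niche were lower in Itga8- BLCs or did not pass. Cxcl12, which retains haematopoietic stem cells, was at 202, 290.3 and 201 CPM and 502, 435 and 435 CPM, where an FDR of 0.0935 met the threshold but a log2 fold change of -0.98 did not. Cxcl12 was called lower in Itga8- BLCs with library totals alone (-1.21), with limma-trend (-1.002), in the fit of only the 6 libraries (-1.01) and without Itga8- BLC replicate 2 (-1.23). Gas6, a ligand of TAM receptors, and Lpl, lipoprotein lipase, were also lower in Itga8- BLCs (-2.665 and -1.34, the latter not called once the length trend was removed), and Esm1 was higher at a low level (3.16 ± 0.8915 against 1.21 ± 0.416 CPM), except without Sca-1+ MSC replicate 3 (FDR = 0.116). Kitl, stem cell factor, was at 3.685, 4.45 and 5.22 CPM and 13.6, 11.75 and 14.3 CPM (-1.57, FDR = 0.00914). Angpt1 was at 4.08, 6.21 and 3.06 CPM and 28, 28.6 and 26.2 CPM (-2.63, FDR = 0.00412).

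Mesenchymal transcription factors outside the bone list were higher in Sca-1+ MSCs for 18 of 36 tested members and in Itga8- BLCs for 3, with a median log2 fold change of -1.68. Ebf2 was at 1.79, 1.67 and 1.44 CPM in Itga8- BLCs and 104, 110 and 76.05 CPM in Sca-1+ MSCs, a log2 fold change of -5.88 ± 0.41 (FDR = 6.81e-06). Meox2, a homeobox gene of mesoderm, was at 3.54, 2.085 and 4.86 CPM and 115, 139.6 and 179 CPM, a log2 fold change of -5.38 ± 0.47 (FDR = 3.39e-05). Ebf1 was at 13.4, 13.7 and 17.6 CPM and 216, 252 and 226 CPM (-3.955), Tbx4, a factor of the hind limb, at 1.05, 1.9 and 2.098 CPM and 24.5, 35.15 and 30.2 CPM (-4.15), and Osr2 at 12.9, 10.4 and 11.15 CPM and 138, 152 and 122 CPM (-3.58). The limb and craniofacial factors Prrx1 and Msx1 had log2 fold changes of -2.11 and -2.56, and Zeb1, a repressor of epithelial genes, one of -2.11. Higher in Itga8- BLCs were Foxs1 (15.1, 12.4 and 62.5 against 2.43, 3.001 and 2.34 CPM), Alx1 at a low level (1.84, 2.503 and 4.197 CPM against 3 counts, all in Sca-1+ MSC replicate 1) and Foxc1 (1.505), whose call was lost without Itga8- BLC replicate 1 (FDR = 0.1235) or Sca-1+ MSC replicate 1 (FDR = 0.102). Foxs1 had a log2 fold change of 3.53, or 2.41 without Itga8- BLC replicate 3. Twist1, Snai2, Klf4 and Klf2 overlapped between the populations and were not called (FDRs of 0.562, 0.235, 0.8696 and 1).

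Markers of other cells that the digest or the gate could hold also moved. Of 15 neutrophil and myeloid genes, 7 were higher in Itga8- BLCs and none in Sca-1+ MSCs, with a median log2 fold change of 1.86. The summed level of the list was 9347, 7540 and 6712 CPM in Itga8- BLCs and 2840, 1149 and 2021 CPM in Sca-1+ MSCs. Elane, neutrophil elastase, was at 980.1, 501 and 743 CPM and 107, 74.7 and 98.7 CPM (2.99, FDR = 0.00256), and Mpo, myeloperoxidase, at 4153, 2360 and 1319 CPM and 906.5, 604 and 676 CPM (1.84, FDR = 0.0156). S100a8 and S100a9, the calprotectin genes, were called at 2.78 (FDR = 0.0681) and 2.65 (FDR = 0.0683), and lost their calls without Itga8- BLC replicate 3 or any Sca-1+ MSC library. Without Sca-1+ MSC replicate 2, 2 of the 7 calls were left, those of Elane and Mpo. The pan-leukocyte gene Ptprc, given above, did not differ past the threshold, and Csf1r of macrophages was not called (FDR = 0.592). Of 8 Schwann and nerve genes, 7 were higher in Itga8- BLCs (median 5.175, 3.71 with limma-trend, or 3.60 with the genes at 0 in Sca-1+ MSCs set to their lower bounds), with summed levels of 277 to 399 CPM against 18.7 to 23.7 CPM. Ncmap was at 193, 119 and 205.5 CPM and 3.596, 4.375 and 7.31 CPM and S100b, which chondrocytes also express, at 72.5, 70.1 and 127 CPM and 5.37, 6.003 and 7.12 CPM. The myelin gene Mag was at 1.89, 1.39 and 1.199 CPM with no count in Sca-1+ MSCs, and Mbp, a further myelin gene, had a log2 fold change of 2.015. Sox10, the defining factor of Schwann cells, was at 1.49, 4.54 and 1.02 CPM and 0, 0 and 0 CPM. Of 8 muscle genes, 4 were higher in Itga8- BLCs, with summed levels of 43.5 to 113 CPM against 2.77 to 4.92 CPM, led by Tnni2, a troponin of fast fibres, at 33.1, 28.8 and 102 CPM and 0.719, 0.305 and 0.187 CPM. Des was at 3.09, 19.8 and 4.68 CPM and Myod1 at 0.149, 4.125 and 1.08 CPM in Itga8- BLCs, both highest in replicate 2, without which the log2 fold change of Des was 1.83 in place of 3.12. Acta1 overlapped between the populations and lost its call without Itga8- BLC replicate 2 or Sca-1+ MSC replicate 2 or 3. Of 6 adipocyte genes, 3 were higher in Itga8- BLCs and 1 was left without Sca-1+ MSC replicate 2, with Adipoq, adiponectin, at 13.3, 21.55 and 51.3 CPM and 2.38, 2.798 and 0.469 CPM and Plin1 at 0.448, 0.788 and 0.2998 CPM and 0, 0 and 0 CPM. The call of Plin1 was lost whichever Sca-1+ MSC library was left out, with FDRs of 0.113, 0.1186 and 0.1203. The part of these other cells in the results was not tested.

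Lists of other blood cells, vessels, contractile cells, stress and the cell cycle gave the following counts. Of all tested genes, 14.5% were called higher in Itga8- BLCs and 11.9% higher in Sca-1+ MSCs. The erythroid, endothelial and stress lists lay near or below these shares. Of 7 lymphoid genes, 4 were higher in Itga8- BLCs (median 1.83, or 2.48 without Sca-1+ MSC replicate 3), with none left without Sca-1+ MSC replicate 2, and each of these calls was also lost without Sca-1+ MSC replicate 3. Ighm, the heavy chain of immunoglobulin M, was at 71.8, 46.2 and 48.1 CPM and 32.5, 13.1 and 14.15 CPM, while Cd79a was at 3.685, 2.41 and 3.54 CPM and 0.664, 0.2035 and 0.187 CPM. Ighm, Cd79b and Nkg7 also lost their calls without Itga8- BLC replicate 1, Ighm without Itga8- BLC replicate 3 and Nkg7 without Sca-1+ MSC replicate 1. Of 11 erythroid genes, 2 were higher in Itga8- BLCs (Tfrc and Epor, median 0.69), and none without Itga8- BLC replicate 1. Both calls were also lost without Sca-1+ MSC replicate 2 or 3, and that of Tfrc without Itga8- BLC replicate 2 or Sca-1+ MSC replicate 1. Of 12 endothelial genes, 1 was called, Tek, the angiopoietin receptor that mesenchymal cells can also express, at 0.548, 3.06 and 0.4796 CPM in Itga8- BLCs and 93.3, 60.3 and 56.2 CPM in Sca-1+ MSCs (-5.66, FDR = 0.00256, or -7.115 without Itga8- BLC replicate 2), while Cdh5 was at 0.747, 0.371 and 0.05995 CPM and 1.33, 1.37 and 1.08 CPM without a call (FDR = 0.1615), which it had with DESeq2 (-1.67, FDR = 0.0949), limma-trend (-1.66, FDR = 0.069) and without Itga8- BLC replicate 1 (-2.52, FDR = 0.0984). Of 7 osteoclast genes, 2 were higher in Sca-1+ MSCs (Atp6v0d2 and Itgb3, the latter not without Itga8- BLC replicate 1 or 3 or Sca-1+ MSC replicate 1 or 2), and Ctsk and Acp5 were not called (FDRs of 0.248 and 0.188), although Acp5 was called lower in Itga8- BLCs with the length trend removed (-1.325, FDR = 0.0028). Contractile genes were called for 3 of 12 (Des, Cnn1 and Tagln, the last not without Itga8- BLC replicate 3 or Sca-1+ MSC replicate 1), with Acta2 at 22.1, 28.6 and 29.7 CPM and 18.3, 32.96 and 29.2 CPM and a log2 fold change near 0. Among 16 immediate early and stress genes, Ier3, Btg2 and Atf3 were higher in Itga8- BLCs by 3.13, 1.575 and 1.19, Nr4a1 was lower (-1.565, FDR = 0.0616, a call lost without Itga8- BLC replicate 3 or any of the Sca-1+ MSC libraries), and Fos was at 2119, 3158 and 5207 CPM and 3588, 3536 and 3325 CPM. Without Itga8- BLC replicate 3, Ier3 was at 2.04 and Atf3 fell to 0.85, under the fold threshold. Of 12 cell cycle genes, 7 were higher in Itga8- BLCs (median 1.13), such as Cdk1 at 52.6, 26.04 and 52.9 CPM and 10.01, 11.95 and 9.56 CPM and Ccnb1 at 50.15, 29.75 and 27.4 CPM and 11.6, 10.8 and 11.95 CPM, as were Mcm5 (1.36), Ccna2 (1.38) and Ccnb2 (1.01, a call that held among the fits without 1 library only in that without Itga8- BLC replicate 2). In contrast, Mki67 was at 28.1, 20.9 and 7.13 CPM and 37.96, 42.3 and 35.1 CPM and was not called (FDR = 0.146), but it was called lower in Itga8- BLCs with limma-trend (-1.24, FDR = 0.0847) and without Itga8- BLC replicate 1 (-1.499, FDR = 0.0939).

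A few leading genes were set against the other populations to see whether their pattern belonged to this comparison. Dmp1 was at 0.171 ± 0.254 CPM in Itga8+ MSCs and 7.32 ± 1.735 CPM in CD51+ CD140a+ MSCs, so Itga8- BLCs were higher than both, by 13.44 (FDR = 2.62e-05) and 7.996 (FDR = 1.19e-05) on the log2 scale. Entpd3 was likewise higher in Itga8- BLCs than in both, by 11.3 (FDR = 2.62e-05) and 7.003 (FDR = 6.54e-06). Ibsp was at 233 ± 77.8 CPM in Itga8+ MSCs but at 10118 ± 5147 CPM in CD51+ CD140a+ MSCs, above the level of Itga8- BLCs (log2 fold change of Itga8- BLCs over CD51+ CD140a+ MSCs -1.55, FDR = 0.0128). Sfrp5, in contrast, was at 82.3 ± 25.01 CPM in Itga8+ MSCs and did not differ past the threshold from Itga8- BLCs (FDR = 0.124). On the side of Sca-1+ MSCs, Serping1 and Sfrp4 were at 7369 ± 858 and 2854 ± 634.5 CPM in CD51+ CD140a+ MSCs. Serping1 was lower in Sca-1+ MSCs than there (-1.395, FDR = 0.00133), and Sfrp4 did not differ past the threshold (FDR = 0.888). Gsn, Cd34 and Col3a1 were higher in Sca-1+ MSCs than in CD51+ CD140a+ MSCs, by 5.83, 7.155 and 5.635, and than in Itga8+ MSCs, by 4.03, 4.65 and 4.403. These comparisons share the Itga8- BLC or the Sca-1+ MSC libraries with the main one.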

How the data were processed

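RNA-seq counts were analysed for all 12 libraries. The authors made SMART-Seq v4 cDNA and Nextera XT libraries of 2000 sorted cells and deposited raw counts of reads per Ensembl gene, without normalisation. The submitters' processing notes name FastQC 0.11.7, Trimmomatic 0.38, HISAT2 2.1.0, SAMtools 1.9, featureCounts 1.6.3 and mm10, whereas the methods of the study name TopHat and Bowtie2. The annotation release and strand setting are not given in the sources used here. Groups and replicate numbers came from the labels.

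The counts were fitted in edgeR 4.0.16 (R 4.3.3) with TMM normalisation and the quasi-likelihood test over all 4 groups. Genes needed 0.5 CPM in 1 library to be tested, and were called at an FDR (Benjamini-Hochberg) below 0.1 with more than a 2-fold difference, which are the thresholds of the study. As alternatives, DESeq2 1.42.0, limma-trend (limma 3.58.1), RLE size factors and scaling by library totals alone were used. The filter was dropped or set to 10 counts in 3 libraries, the fit was restricted to the 6 libraries or given a replicate block, all libraries were thinned to the smallest total, the FDR was lowered to 0.05, and each library was left out in turn. Removal of a smooth trend with exon length was a further alternative, chosen after the data had been seen. The edgeR fits with and without removal of the length trend, limma-trend and DESeq2 were tested on simulated data that held no length trend.

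A fold against a group without a count was computed against 3 counts per library and is a lower bound, and a ratio over 1 to 3 counts has an exact 95% interval. Both cover counting error only, since PCR copies cannot be told from molecules. TPM, coordinates, exon overlap and unique 50-base words came from GENCODE M21 on GRCm38, which lacks 259 of the 49585 identifiers. Promoters came from RefSeq (GRCm38.p6). Tables and figures were made in Python 3.11.15 (numpy 2.4.6 and pandas 2.3.3 for tables, matplotlib 3.10.9 for figures, scipy 1.17.1 for intervals).

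The comparison and the 27 gene lists were chosen with earlier results of these data known. Named genes are those of the sort, in each direction the 10 largest changes without overlap of libraries and at a mean of at least 10 CPM and the 10 highest levels, up to 4 called members of each list in each direction by level, and members given as not called. A further 63 genes were named after their values had been seen, among them Bglap2, Ifitm5, Runx2, Alpl, Cd34, Pi16, Dpp4 and Sfrp1. Some genes that met these rules are not reported here.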

Additional observations from a re-analysis of the deposited data

How the results depend on the processing

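Both counts of called genes stayed within 1.5 times of 2706 and 2224 under every alternative named above. DESeq2 called 3070 and 2588 genes, limma-trend 2871 and 2745, a fit of only the 6 libraries 3018 and 2639, and an FDR under 0.05 left 2005 and 1689. Removal of the gene-length trend gave 2718 and 2309, of which 2278 and 1889 were among the genes called without it. With 1 library left out the counts ranged from 1838 to 2675 and from 1614 to 2980. Without Itga8- BLC replicate 2, 47.3% of the calls favoured Itga8- BLCs. Of the 200 named genes that were called, 162 were called under every alternative and 0 changed direction, while 72 moved by more than 1.5 times without 1 of the libraries. Of 39 named genes that were not called, 17 were called under 1 or more alternatives, as given with their values above. Calls lost with library totals alone were those of Atf3, Ccnb2, Efnb2, Epor, Ighm and Serpinh1, with limma-trend those of Ccnb2, Efnb2, Ftl2-ps and Serpinh1, and in the fit of the 6 libraries those of Acta1, Ccnb2, Dlx6 and Npr3. Without the filter that of Ccnb2 was lost, and after thinning that of Efnb2. An FDR under 0.05 ended 17, those of Acta1, Ccnb2, Cd79b, Dlx6, Efnb2, Enpp1, Epor, Ighm, Il6, Itgb3, Npr3, Nr4a1, Plin1, S100a8, S100a9, Serpinh1 and Tfrc. The direction of some genes that were not called did change, most of them with a log2 fold change near 0. The cause was not tested. With the gene-length trend removed, the log2 fold change was -0.393 for Acta2, 0.082 for Cd44, -0.4105 for Fos, -0.494 for Klf2, -0.168 for Klf4, -0.323 for Lum, -0.12 for Spp1, -0.017 for Tnfsf11 and -0.249 for Twist1. With library totals alone it was -0.224 for Acta2, -0.242 for Fos, -0.196 for Klf2, -0.0553 for Klf4, -0.1096 for Lum and -0.011 for Pecam1. With limma-trend it was -0.0919 for Fos, -0.0156 for Klf2 and -0.068 for Lum, and with the replicate block -0.0801 for Fos and -0.0227 for Klf2. In the fit of the 6 libraries Acta2 was at -0.0288, Fos at -0.02875 and Klf2 at -0.0222, and without the filter they were at -0.0092, -0.00775 and -0.00517. Acta2 was at -0.00839 and Fos at -0.000725 with DESeq2, at -0.00857 and -0.000723 with RLE size factors, and Acta2 was at -0.00646 after thinning. With 1 library left out, the range was -0.2125 to 0.176 for Acta2, -0.212 to 0.904 for Csf1r, -0.402 to 0.214 for Fos, -2.15 to 0.055 for Itga8, -0.141 to 0.117 for Klf2, -0.307 to 0.259 for Klf4, -0.599 to 0.342 for Lum, -0.31 to 0.52 for Pecam1, -0.23 to 1.23 for Ptprc and -0.29 to 0.84 for Spp1.

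With the replicate number as a block, 2290 genes were called higher in Itga8- BLCs and 1878 higher in Sca-1+ MSCs. It ended the calls of 12 named genes, which were Acta1, Ccnb2, Dlx6, Efnb2, Enpp1, Il6, Itgb3, Npr3, S100a8, S100a9, Serpinh1 and Tfrc, with FDRs from 0.104 to 0.223. The numbers are not shown to pair the libraries, since deviations from the group means correlated at 0.041, 0.13 and 0.16 for replicates 1, 2 and 3, and Sca-1+ MSC replicate 1 correlated best with Itga8- BLC replicate 2 (0.073). Under the floor of 0.139 to 0.180 CPM no difference was detectable.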
